A study of Mus musculus with 12 samples.

Results

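The Kruppel-like factors are transcription factors that share a carboxy-terminal block of zinc fingers and bind GC-rich and CACCC-like DNA. The 9 members described here are Klf2, Klf3, Klf4, Klf5, Klf6, Klf9, Klf10, Klf13 and Klf15, taken by gene symbol from tables that list 27592 genes for males and 26048 genes for females. All 9 were listed in both. The tables come from bulk RNA sequencing of glomeruli, the filtration units of the kidney, isolated from mice by mincing, collagenase digestion and sieving. The Alport syndrome (AS) mice carry the tm1Yseg allele of the X-linked collagen gene Col4a5 on a C57BL/6J background. There were 4 groups of 3 samples, all 3.5 months old per the labels, although the study's supplement gives a slightly older age for males: male WT, male AS, in which the single X chromosome carries the mutant allele, female WT, and female AS het, which are heterozygous and so a mosaic of cells with and without the normal allele. Female WT replicate 3 repeated replicate 1 in every value and was counted once, which left 11 distinct libraries and only 2 for female WT. Nothing in the labels ties a sample to a named animal, so p-values measure the spread between these libraries.

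Within the kidney, KLF2 and KLF4 are best known from endothelium, where blood flow induces them and where they raise genes against clotting and inflammation. KLF15 is enriched in kidney and is known in mouse podocytes, the epithelial cells that cover the glomerular capillaries, as a glucocorticoid-responsive differentiation factor, and KLF9 is another direct glucocorticoid target. KLF6 and KLF10 belong to the factors that cells induce quickly after growth factors or injury, KLF10 having been found as an early gene of TGF-beta. The question asked of these libraries was how the members' transcripts differed between AS and WT glomeruli in each sex.

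The study turned on the microRNA miR-93-5p, so its sequence and the matching places in member transcripts are shown first, with RefSeq as the source of the miRNA and the GENCODE annotation of GRCm38 as the source of the transcripts. Capitals in the miRNA mark its seed, bases 2 to 8 (chr5:138165574-138165596, minus strand), and capitals in the transcript windows mark GCACTTT, the word that pairs with it.
mmu-miR-93-5p: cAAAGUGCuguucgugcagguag
Klf9: gaacataaactGCACTTTtattttctaat
Klf10: taaaatacactGCACTTTgtttagaaaaa
Klf3: tacaaatactaGCACTTTtttttcctgtt
Klf6: aaggggaaaatGCACTTTtgtttggcaat
The Klf9 window lies in the 3′ UTR at chr19:23165694-23165722 on the plus strand, and the word starts at base 793 of 3222. For Klf10 it lies at chr15:38295129-38295157 on the minus strand, at base 759 of 1492. The Klf3 window is at chr5:64832460-64832488 and the Klf6 window at chr13:5869897-5869925, both on the plus strand. Klf9 and Klf10 are in the study's list of predicted miR-93 targets, and Klf3 and Klf6 are not. The word occurs in the 3′ UTR of 11.7% of 20981 genes, and of 20.5% of the 10171 genes whose 3′ UTR has at least 1000 bases. Holding it, as 4 of the 9 members do, is a description of these letters, and no test was made. miR-93-5p itself was not measured in these libraries.

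Promoters from RefSeq (GRCm38, 250 bases before to 50 after the start) matched 7 of the 9 members, namely Klf2, Klf3, Klf4, Klf6, Klf9, Klf13 and Klf15. They were searched on both strands for CACGTG, the E-box through which the circadian factors CLOCK and BMAL1 act, for the cyclic AMP response element TGACGTCA, and for the serum response element. The E-box was found in Klf15, Klf4 and Klf6, with 3 copies in Klf15, and is marked in capitals.
Klf15: cccgaggtccCACGTGgtctgcactt
Klf15: gaacccgtctCACGTGcgcatcggag
Klf15: cccgcggcgtCACGTGagcggccgga
Klf4: cccccgccccCACGTGcgcggagttt
Klf6: ccaagctggtCACGTGgggggagaag
In order, these lie at chr6:90462338-90462363, chr6:90462394-90462419 and chr6:90462563-90462588 on the plus strand, at chr4:55532642-55532667 on the minus strand and at chr13:5861436-5861461 on the plus strand. Of all 32851 promoters, 7.15% hold the E-box. The cyclic AMP response element (1.79% of promoters) and the fixed word of the serum response element (0.06%) were found in 0 of the 7. Other forms of these elements may be present.

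Several features of the whole data set bear on what follows. Col4a5 was lower in AS in each sex, at 1209 to 1854 in male WT against 572 to 727 in male AS, and at 1752 and 2329 in female WT against 1187 to 1329.5 in female AS het. All values here are TMM-normalized counts, that is, read counts per gene that the authors scaled by the trimmed mean of M-values. Female WT and female AS het libraries carry different code prefixes in their table headers, so whatever the code marks, which is not given in the sources used here, cannot be told apart from genotype in that sex. Male headers carry no such code. Cell type markers differed strongly between the male groups. Of 15 proximal tubule markers, 15 fell in male AS (median log2 fold change -1.97), and their summed level was 265673 to 448251 in WT and 40074 to 100049 in AS. Of 15 endothelial markers 11 rose (median 0.95), with sums of 52444 to 104085 in WT and 116956 to 167464 in AS, and of 15 podocyte markers 10 rose (median 0.97), with sums of 168742 to 258998 and 365317 to 460569. Among the other lists in males, 5 of 12 distal nephron markers and 5 of 6 parietal epithelial markers fell, 2 of 12 leukocyte markers rose and 1 fell, and 2 of 11 mesangial, smooth muscle and juxtaglomerular markers rose and 3 fell. No matched marker was at 0 in any library. In females 4 of 12 distal nephron markers rose and no marker of the other 6 cell types passed the test. The podocyte and endothelial markers that define glomeruli were thus present in all groups, together with tubule RNA, and in such bulk samples fewer cells of a type and less RNA per cell cannot be told apart.

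In male AS glomeruli 3 of the 9 members passed the test, with Klf2 and Klf13 higher and Klf9 lower than in WT. The test was limma on log2 values with a Benjamini-Hochberg adjusted p under 0.05 over 15881 genes, and 35.5% of all genes passed it, so the share of the members was near that of the transcriptome. By direction, 16.6% of all genes were called higher and 18.9% lower. At an unadjusted p under 0.05, 8 of 9 members passed, against 48.2% of all genes. For 6 of 9 members the AS and WT libraries did not overlap, against 53.1% of genes. Of these, 4 members lay higher in AS (26.0% of genes did) and 2 lay lower (27.2% of genes did). The median log2 fold change of the 9 was 0.14, and that of all genes tested was 0.0023. An exact two-sided permutation test of a single gene cannot give a p below 0.1 with 3 libraries against 3.

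In female AS het glomeruli 0 of the 8 members tested passed limma's adjusted threshold, which 1.40% of 15803 genes passed. Klf5 lay under the filter on low values and was not tested. At an unadjusted p under 0.05, 2 of 8 members passed, Klf4 and Klf9, against 21.8% of all genes. The groups did not overlap for 4 of 8 members, against 40.4% of genes. Klf2 and Klf4 lay higher in AS (19.1% of genes did), and Klf9 and Klf13 lay lower (21.3% did). The smallest exact two-sided p was 0.2 here, with 2 WT libraries.

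**Figure D1:**
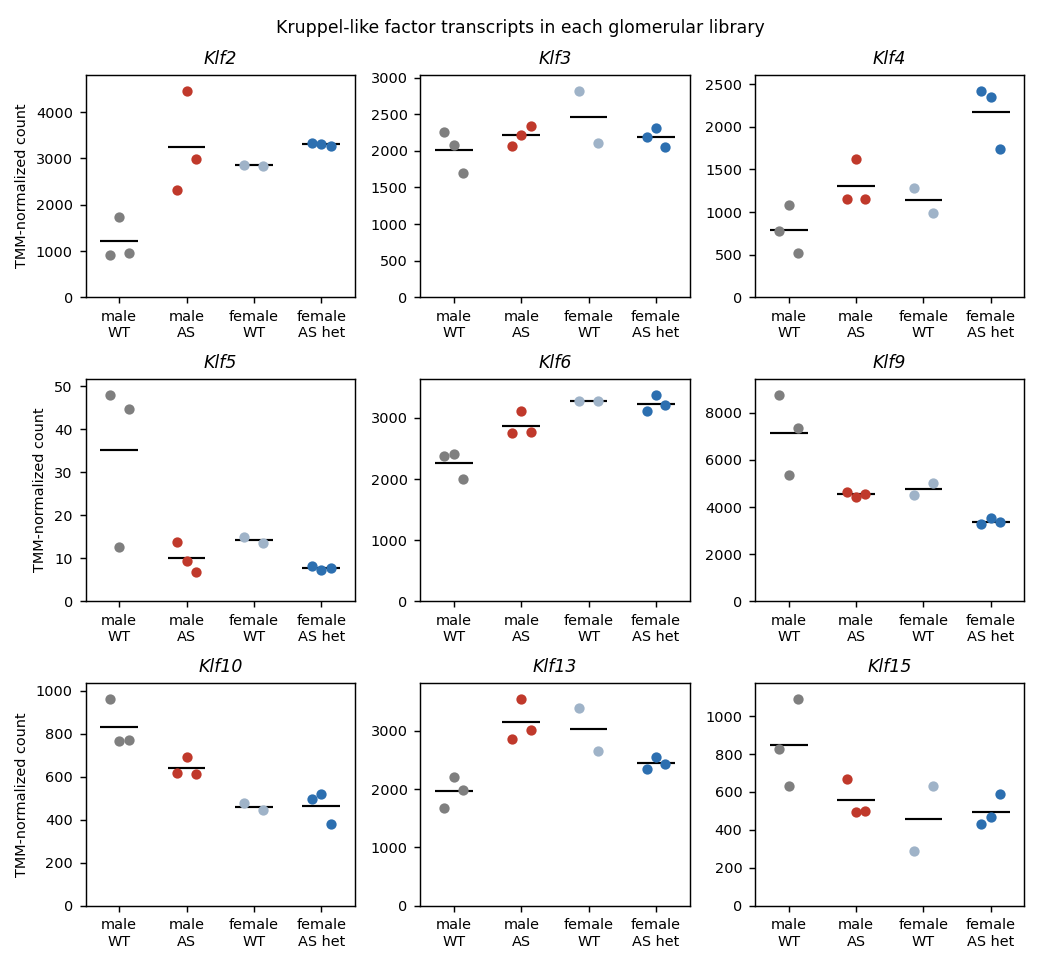
TMM-normalized count (vertical axes, each starting at 0) of the 9 members in each of the 11 distinct libraries, where points are libraries and bars are group means. Klf2 and Klf13 sit higher in the 3 male AS libraries than in the 3 male WT libraries, and Klf9 sits lower in AS in both sexes.

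Klf2, the flow-induced endothelial factor (chr8:72319033-72321656, plus strand), was the member with the largest log2 fold change in males on the scale with the pseudocount, which shrinks that of the scarce Klf5. The male WT libraries held 920.0, 1737 and 961 TMM-normalized counts. The male AS libraries held 2309, 4457 and 2991, so every AS library lay above every WT library, with replicate 2 the highest of each group. The log2 fold change was 1.43 (SE 0.30, adjusted p = 0.012 from limma), a 2.69-fold rise. The call was lost without male WT replicate 1 (1.27, adjusted p = 0.055 from limma), the library with the lowest Klf2. In females the count was 2862 and 2841 in WT and 3325, 3307 and 3274 in AS het. The female groups did not overlap, yet their distance was small, at 0.21 on the log2 scale (SE 0.10, adjusted p = 0.28 from limma).

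Since endothelial markers also rose in male AS, Klf2 was set against their mean in each library. The log2 value of Klf2 minus the mean log2 value of the 15 endothelial markers was -1.90, -1.45 and -1.37 in male WT and -1.18, -0.79 and -1.18 in male AS. In females it was -1.45 and -0.94 in WT and -0.73, -0.62 and -0.58 in AS het. In each sex the AS libraries lay above the WT libraries on this scale too, without overlap. Against the 15 podocyte markers the male groups overlapped, at -2.86, -2.19 and -2.49 in WT and -2.30, -1.67 and -2.01 in AS. The distance between the male groups was smaller on the endothelial scale than for Klf2 itself. Between the female groups it was larger than for Klf2 itself. The endothelial markers had a median log2 fold change of -0.33 in females, and 0 of 15 passed. The part of these markers in the female distance was not tested.

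**Figure D2:**
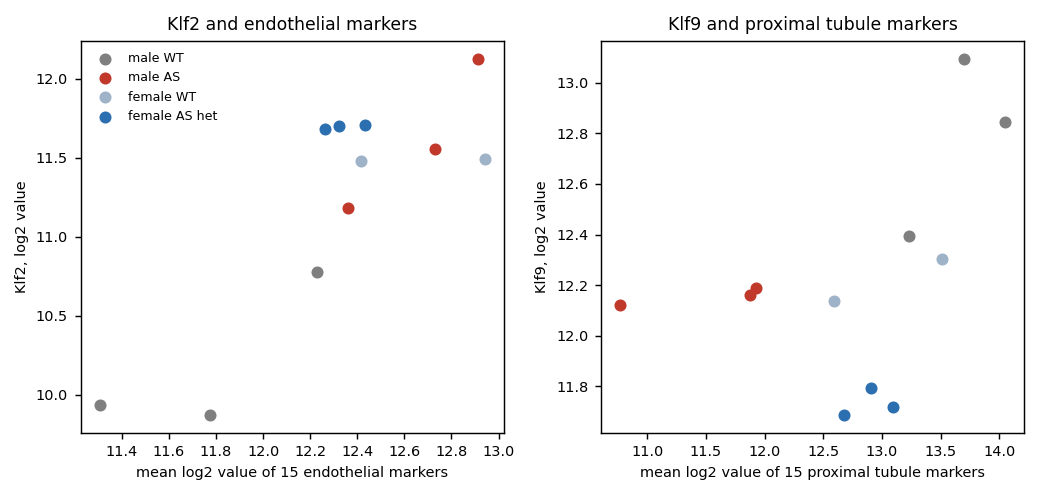
Left, log2 value of Klf2 against the mean log2 value of 15 endothelial markers; right, log2 value of Klf9 against the mean of 15 proximal tubule markers, with 1 point per library. Among the male libraries Klf2 is lower in WT, where the endothelial mean runs from 11.31 to 12.23, than in AS, and Klf9 is higher in WT, where the tubule mean runs from 13.24 to 14.05; positions are to be compared within a sex.

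Klf4, which shares many endothelial targets with Klf2 and is also present in podocytes (chr4:55527143-55532466, minus strand), lay higher in AS in both sexes and missed the adjusted threshold in each. In males it was 779, 1083 and 525 in WT and 1150.2, 1621 and 1150.0 in AS. The lowest AS library was only slightly above the highest WT library, and the log2 fold change was 0.74 (SE 0.26, adjusted p = 0.057 from limma). With equal column totals it was 1.15 (adjusted p = 0.013 from limma), but that scaling moved the median of all genes in males to 0.36. Quantile normalization, where that median was 0.063, gave 0.84 (adjusted p = 0.043 from limma). Leaving out male WT replicate 3 gave 0.48 (adjusted p = 0.14 from limma). The female values were 1288 and 991 in WT and 2421, 2351 and 1743 in AS het, clearly apart, with a log2 fold change of 0.92 (SE 0.18, adjusted p = 0.064 from limma). Relative to the endothelial markers, Klf4 stood at -2.14, -2.12 and -2.23 in male WT and -2.17, -2.23 and -2.54 in male AS, which overlap. The same measure was -2.59 and -2.44 in female WT and -1.18, -1.11 and -1.48 in female AS het, which do not.

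Endothelial genes that KLF2 and KLF4 are known to raise were compared next. Of the 5 tested in males, 4 rose in AS and 0 fell, with a median log2 fold change of 0.88. They were the angiopoietin receptor gene Tek (1.38), the sphingosine receptor gene S1pr1 (1.02), the endothelial nitric oxide synthase gene Nos3 (0.88) and the thrombomodulin gene Thbd (0.76), with adjusted p of 0.0099, 0.014, 0.017 and 0.029 from limma. The fifth, the cadherin gene Cdh5, was at 0.72 (adjusted p = 0.070 from limma). Tek and Cdh5 are also on the endothelial marker list, whose median in males was 0.95. Without male WT replicate 1 or replicate 3, 2 of the 5 passed. In females 0 of 5 passed at the adjusted threshold, and the median was -0.33.

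Among the endothelial genes that these factors are known to lower, the leukocyte adhesion genes Vcam1 (-2.02), Sele (-1.27) and Icam1 (-0.60) fell in male AS, with adjusted p of 0.0040, 0.021 and 0.040 from limma. In all 3 of 5 fell and 1 rose, and the median was -0.60. Without male WT replicate 1, male WT replicate 3 or male AS replicate 3, 1 of 5 fell. In females Vcam1 alone passed, at -2.18 (adjusted p = 0.043 from limma), and it no longer did without female WT replicate 1 or female AS het replicate 1 or 2.

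Klf9, the glucocorticoid- and thyroid hormone-induced member (chr19:23141226-23168134, plus strand), was lower in AS in both sexes. In males it was 8739, 5358 and 7349 in WT and 4648, 4434 and 4566 in AS. The AS libraries were tightly grouped and the WT libraries spread widely, replicate 2 being nearest to AS. The log2 fold change was -0.62 (SE 0.19, adjusted p = 0.036 from limma). This call was fragile: it was lost when any male library other than WT replicate 2 was left out (-0.64 to -0.46, adjusted p 0.066 to 0.11 from limma), and with equal column totals (-0.21, adjusted p = 0.38 from limma), a scaling that moved the median of all genes in males to 0.36. In females Klf9 was 4492 and 5038 in WT and 3279.9, 3531 and 3351 in AS het. Those groups did not overlap, with a log2 fold change of -0.49 (SE 0.12, adjusted p = 0.088 from limma).

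The proximal tubule markers fell in male AS along with Klf9, and by more. Klf9 minus their mean log2 value was -0.60, -0.84 and -1.21 in male WT and 0.26, 1.35 and 0.28 in male AS. The part of tubule RNA in the male difference of Klf9 was not tested. Against the podocyte markers Klf9 was 0.36, -0.58 and 0.42 in male WT and -1.295, -1.68 and -1.40 in male AS, so its direction also depends on the markers chosen. In females the proximal tubule list had a median of -0.20 and 0 of 15 passed.

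Klf15, the kidney-enriched podocyte factor (chr6:90462576-90475238, plus strand), was 828, 633 and 1088 in male WT and 670.0, 497 and 500.2 in male AS. The AS replicate with the highest value overlapped the lowest WT library. The log2 fold change was -0.58 (SE 0.21, adjusted p = 0.066 from limma), and leaving out male WT replicate 2 or male AS replicate 1 brought it past the threshold (-0.77 and -0.72, adjusted p = 0.022 and 0.042 from limma). It was -0.39 without male WT replicate 3 (adjusted p = 0.18 from limma) and -0.17 with equal column totals (adjusted p = 0.52 from limma). Female WT libraries had 287 and 632, and female AS het libraries 431, 468 and 591. The 2 female WT libraries lay on either side of all 3 AS libraries, so no direction can be read (log2 fold change 0.20, SE 0.31, adjusted p = 0.75 from limma).

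Genes tied to KLF15 split in male AS. Nphs1, the slit diaphragm gene of podocytes, rose by 1.503 (adjusted p = 0.0055 from limma), whereas Prodh (-1.82, adjusted p = 0.0062) and Gpt (-0.57, adjusted p = 0.036), which act in proline and alanine breakdown, fell. Of the 6 tested, 1 rose, 2 fell and the others did not pass. Nphs1 is also on the podocyte marker list, whose median in males was 0.97, beside -1.97 for the proximal tubule markers. The part of these marker shifts in the split was not tested. Relative to the 15 podocyte markers, Klf15 was -3.01, -3.62 and -2.31 in male WT and -4.06, -4.79 and -4.54 in male AS, which do not overlap. Against the 15 proximal tubule markers it went the other way, at -3.98, -3.89 and -3.94 in male WT and -2.50, -1.76 and -2.86 in male AS. The male direction of Klf15 thus depends on the markers it is set against. In females 0 of 6 passed.

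Glucocorticoid response genes did not move one way in male AS: 3 of 10 rose and 5 fell. Tsc22d3, which encodes the anti-inflammatory protein GILZ, rose (1.49, adjusted p = 0.0039 from limma) and so did the clock gene Per1 (1.36, adjusted p = 0.0039). Zbtb16 (-2.86, adjusted p = 0.0046) and the receptor cochaperone gene Fkbp5 (-1.62, adjusted p = 0.0058), both strongly glucocorticoid-induced in many tissues, fell. In females 1 of 10 passed, Tsc22d3, which fell (-0.96, adjusted p = 0.037 from limma), and it did not pass without female WT replicate 1 or any one of the 3 AS het libraries.

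Klf13, known from the activation of the chemokine gene CCL5 in human T cells (chr7:63886351-63938915, minus strand), rose in male AS. It was 1681, 2214 and 1989 in male WT and 2866, 3536 and 3020.4 in male AS, fully apart. The log2 fold change was 0.68 (SE 0.15, adjusted p = 0.013 from limma). This was the member whose call in males held when any one library was left out (0.57 to 0.77). Relative to the markers that rose in male AS, however, the groups overlapped. Against the endothelial markers Klf13 was -1.05, -1.10 and -0.34 in male WT and -0.87, -1.12 and -1.16 in male AS, and against the podocyte markers it was -2.00, -1.84 and -1.45 in WT and -1.99, -2.00 and -1.99 in AS. No rise of Klf13 was seen on either scale. On the scale of the proximal tubule markers, which fell in male AS, Klf13 lay higher in AS without overlap. It was -2.97, -2.11 and -3.08 there in male WT and -0.43, 1.03 and -0.31 in male AS. Its male direction thus depends on the markers chosen, and the part of cell composition in it was not tested. In females Klf13 was 3392 and 2660.0 in WT and 2339.8, 2555 and 2430.2 in AS het, lower in each AS library, at -0.30 (SE 0.14, adjusted p = 0.26 from limma). Without female WT replicate 2 this reached -0.47 (adjusted p = 0.040 from limma).

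Klf6, an early response factor known to protect mitochondrial function in mouse podocytes, was 2379, 2412 and 2008 in male WT and 2746, 3109 and 2761 in male AS. These groups were apart, with a log2 fold change of 0.34 (SE 0.13, adjusted p = 0.066 from limma). With equal column totals, where the median of all genes was 0.36, it was 0.76 (adjusted p = 0.015 from limma). Quantile normalization, where that median was 0.063, gave 0.49 (adjusted p = 0.026 from limma). Leaving out male WT replicate 3 gave 0.26 (adjusted p = 0.17 from limma). Against the podocyte markers Klf6 lay lower in male AS, at -1.51, -1.72 and -1.44 in WT and -2.05, -2.19 and -2.12 in AS. In females it was 3279.9 and 3276 in WT and 3106, 3369 and 3204 in AS het, which overlap (-0.02, SE 0.11). Klf3, a repressor that works through CtBP, was 2259, 2083 and 1700.1 in male WT and 2066, 2220.2 and 2342 in male AS. Klf3 was 2815 and 2111 in female WT and 2194, 2313 and 2050.0 in female AS het. Its groups overlapped in each sex, with log2 fold changes of 0.14 (SE 0.14) and -0.16 (SE 0.15). With equal column totals the male value was 0.55 (adjusted p = 0.042 from limma), again beside a median of all genes of 0.36.

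Klf10, the TGF-beta early gene, was 959, 768 and 771 in male WT and 618, 691 and 614 in male AS. The AS libraries all lay below, with a log2 fold change of -0.36 (SE 0.13, adjusted p = 0.063 from limma), but with equal column totals the value was 0.04. Female levels were 477 and 443 in WT and 495, 519 and 379 in AS het, with no difference beyond the spread (0.0030, SE 0.16). Of 8 TGF-beta genes, 2 rose in male AS, among them the receptor gene Tgfbr2 (0.69, adjusted p = 0.023 from limma), and 0 fell. In females 0 of 8 passed at the adjusted threshold.

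Klf5, known from gut and collecting duct epithelium, was by far the scarcest member. It was 48.0, 12.7 and 44.8 in male WT and 13.9, 9.52 and 6.96 in male AS, overlapping through WT replicate 2. The log2 fold change was -0.86 (SE 0.30, adjusted p = 0.056 from limma) and reached -1.21 without that library (adjusted p = 0.0054 from limma). Values this low lie near the pseudocount of 17.6, which understates their fold change. In females it was 15.1 and 13.6 in WT and 8.34, 7.26 and 7.72 in AS het. The distal nephron and collecting duct markers, whose summed level was 64482 to 107001 in male WT and 24780 to 83708 in male AS, had a median of -1.59 in males. In females their sum went the other way from Klf5, at 22482 and 36281 in WT and 64586 to 88663 in AS het. The part of these markers in the differences of Klf5 was not tested.

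**Figure D3:**
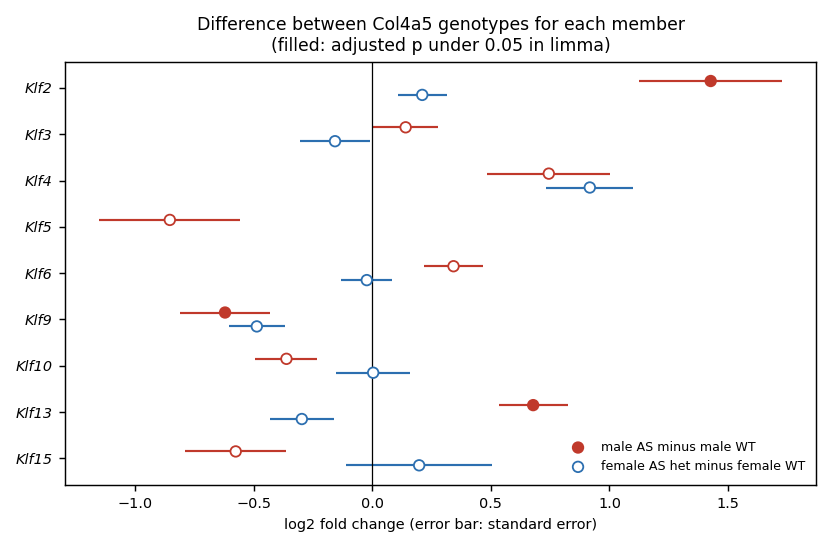
Log2 fold change of AS against WT (horizontal axis) for each member in males (red) and females (blue), with bars for the standard error and filled points for an adjusted p under 0.05 in limma. Filled points are Klf2 at 1.43, Klf13 at 0.68 and Klf9 at -0.62, all in males; Klf5 has no female point because it was not tested there.

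The male and female effects were compared by the interaction term of 1 limma fit over 15473 genes, 23.2% of which passed. Of 8 members 2 passed, Klf2 and Klf13, each with the male effect above the female effect, as did 10.5% of all genes. For Klf2 the male minus female difference was 1.22 (SE 0.38, adjusted p = 0.042 from limma). For Klf13 it was 0.98 (SE 0.21, adjusted p = 0.021 from limma). The Klf2 call held only without male WT replicate 2 or male AS replicate 1, and was lost without any one of the other 9 libraries (0.96 to 1.25). The Klf13 call was lost without male WT replicate 3 (0.99, adjusted p = 0.051 from limma) or female WT replicate 1 (0.80, adjusted p = 0.13 from limma). For Klf9 (-0.13, SE 0.24) and Klf4 (-0.17, SE 0.37) the difference between the sexes was smaller than its own error.

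**Figure D4:**
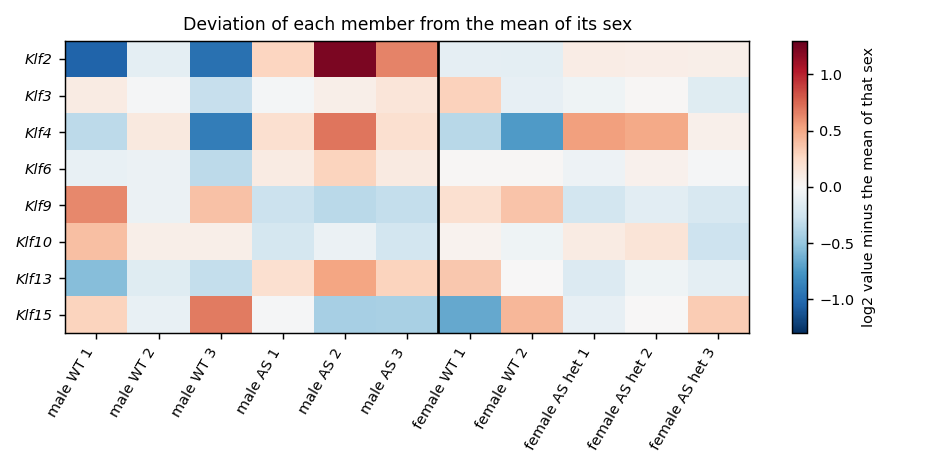
Log2 value of each member tested in both sexes minus its mean over the libraries of that sex, with 1 column per library (red above the mean, blue below) and a black line between males and females. Klf2, Klf4, Klf6 and Klf13 turn from blue to red between male WT and male AS, except Klf4 in WT replicate 2. Klf10 turns from red to blue there, as do Klf9 and Klf15 except in WT replicate 2. In females Klf2 and Klf4 turn from blue to red, and Klf9 and Klf13 from red to blue, with Klf13 in WT replicate 2 at only 0.004.

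Other genes of the family were followed for context. Of 17 further Kruppel-like and Sp genes, 11 were tested in males, where 2 rose and 2 fell, a share near the 35.5% of all genes called. Klf12, a CtBP-binding repressor, rose from 299, 378 and 373 in male WT to 596, 552 and 707 in male AS (0.79, SE 0.15, adjusted p = 0.0090 from limma). Klf7 rose by 0.72 (adjusted p = 0.022 from limma), and lost the call without male WT replicate 1, male AS replicate 2 or male AS replicate 3. The Wnt target gene Sp5 fell from 119, 65.8 and 138 to 41.8, 15.9 and 36.5 (-1.35, SE 0.30, adjusted p = 0.014 from limma), and lost the call without male WT replicate 1 or 3. Sp6 fell at a still lower level (-0.73, adjusted p = 0.031 from limma), and lost the call without male WT replicate 1 or 3 or male AS replicate 2 or 3. In females 0 of 12 passed the adjusted threshold, and 0 had an unadjusted p under 0.05. The difference between the sexes passed for Klf12 (1.01, adjusted p = 0.020 from limma) and Sp5 (-1.43, adjusted p = 0.039 from limma).

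Immediate early genes, the group to which Klf4, Klf6 and Klf10 are often added, were followed in both sexes. In female AS het 10 of 20 rose and 0 fell (median log2 fold change 1.52), among them Fosb (2.46), Ier2 (1.85), Dusp1 (1.65) and Egr2 (2.23), with adjusted p of 0.027, 0.019, 0.027 and 0.029 from limma. Without female AS het replicate 1 or 2, 0 of 20 passed. In male AS 3 rose, including Srf (1.00) and Fosl2 (0.95), and 5 fell, including Zfp36 (-1.53), with a median of -0.34 that became 0.07 with equal column totals. In the test of the difference between the sexes 14 of 20 passed with the male effect lower and 1 with it higher. In females Klf4 lay in the direction of this list, whereas Klf6 and Klf10 were at -0.02 and 0.0030. The part of this list in the female difference of Klf4 was not tested.

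Circadian clock genes differed between genotypes in each sex, and KLF9, KLF10 and KLF15 are known as clock-controlled. In females 3 of 18 rose and 8 fell. Npas2 (2.39) and Arntl (1.88), which encode activators, rose, while the output gene Dbp (-3.04) and the repressor gene Bhlhe41 (-2.80) fell, with adjusted p of 0.0030, 0.0069, 0.0054 and 0.0030 from limma. In males 4 of 18 rose and 5 fell, among them Hlf (-1.47, adjusted p = 0.0039 from limma) and Nr1d1 (-1.69, adjusted p = 0.0040 from limma). The count in females fell to 2 higher and 3 lower without AS het replicate 1, and to 1 higher and 2 lower without replicate 2. The hour of collection is not given in the sources used here, and the part of the clock differences in those of Klf9, Klf10 and Klf15 was not tested.

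Levels can be compared between members only per length, and were divided by the kilobases of annotated exon. This length joins the exons of all annotated transcripts of a gene, 11243 bases for Klf3 and 1847 for Klf2. It can exceed the length of the transcripts present, which lowers the value, so the order of members depends on it. In male WT the mean was highest for Klf9, at 1485 ± 353 (SD, n = 3) per kilobase, ahead of Klf2 (653 ± 249) and Klf6 (516 ± 51.1). Klf2 and Klf6 did not differ there beyond their spread. Next came Klf15 (304 ± 81.9), Klf4 (261 ± 91.7), Klf13 (260.4 ± 35.5), Klf10 (199 ± 26.3) and Klf3 (179 ± 25.4), each within the spread of its neighbour. Klf5 was far below, at 6.76 ± 3.75. In male AS Klf2 (1761 ± 594) took the first place, followed by Klf9 (945 ± 22.4), Klf6 (654 ± 46.8), Klf4 (429 ± 89.2) and Klf13 (417 ± 46.6), the last 2 within their spread of each other. Klf15 (199 ± 35.5), Klf3 (196 ± 12.3) and Klf10 (153 ± 10.4) lay below them, the first 2 overlapping, and Klf5 last (1.95 ± 0.68).

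In female WT the order was again led by Klf2 (1544 ± 8.15, n = 2), then Klf9 (989.6 ± 80.1), Klf6 (747 ± 0.65), Klf13 (402 ± 68.7) and Klf4 (374 ± 68.8), the last 2 overlapping. Klf3 (219 ± 44.3), Klf15 (165 ± 87.3) and Klf10 (110.1 ± 5.79) followed, Klf15 overlapping both others, and Klf5 was at 2.76 ± 0.21. In female AS het Klf2 was highest (1788 ± 13.95, n = 3). Klf6 (735 ± 30.2), Klf4 (712 ± 122) and Klf9 (704 ± 26.9) came next and overlapped, so Klf4 stood with Klf6 and Klf9 there and below them in the other 3 groups. Klf13 (324 ± 14.4) followed, then Klf3 (194 ± 11.7) and Klf15 (178 ± 29.98), which overlapped, Klf10 (111 ± 17.9) and Klf5 (1.495 ± 0.104).

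The genes whose profile over the 11 libraries was nearest to a member were found for the 3 members that varied most, by the root mean square difference of log2 values centred within each sex. Klf2 (SD 0.64 on that scale) was nearest to Spry4 (0.156), Nid2 (0.160) and Impdh1 (0.163). Klf4 (SD 0.52) was nearest to Sertad1 (0.146), Ntf3 (0.162) and Gadd45b (0.174). Klf15 (SD 0.41) was nearest to Timm8a1 (0.116), Hint2 (0.124) and Gm45606 (0.128). These are descriptions over libraries that share their composition and depth, with no test.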

How the data were processed

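Glomerular RNA of 12 samples was sequenced by the authors from stranded polyA libraries with paired-end reads. Per the labels and the study's supplement, reads passed FastQC and cutadapt, were aligned to mm10 with STAR and counted in Partek. Versions, and whether counting used strand, are not given in the sources used here. The deposited signal values are gene counts scaled by TMM by the authors, 1 table per sample. Male and female tables may have been scaled apart, so levels are compared within a sex.

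Values below 1e-06 were taken as 0. Column totals were 14242206 to 23182937. Of the low values, 76.3% to 80.1% were whole multiples, within 0.01, of a column's step, so read counts were not recovered and no counting interval is given. Female WT replicate 3 equals replicate 1 within a relative tolerance of 1e-06. Date-like symbols (22 in male, 23 in female tables) were fitted but not named.

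limma 3.58.1 in R 4.3.3 was run with a mean-variance trend on log2(value + 1 CPM of the mean column total, 17.6 in males and 17.8 in females), keeping genes that reached 0.5 CPM in 3 or more libraries, two-sided, adjusted by Benjamini-Hochberg at 0.05 over all genes tested. Fold changes on this scale understate the change of low genes. In simulated data with 200 changed genes, 10.8%, 48.8% and 89.2% of genes changed by a fold of 1.5, 2 and 4 passed in males (15881 genes). In females (15803 genes) it was 7.6%, 53.2% and 84.6%. In the real male data 5641 genes passed, which makes the adjusted threshold looser than in the simulation. The male shares therefore do not give the rate of calls in the real male data.

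Named genes were all members, up to 4 genes per list with the smallest adjusted p in either sex, and the 3 nearest in profile to each of the 3 most variable members. Gene lists and marker lists came from general knowledge, and members and lists were chosen with earlier results of these data known. Some list members are counted but not reported by name here. Alternatives were other pseudocounts, filters and scalings, a replicate block, both sexes in 1 fit, the study's unadjusted threshold with a fold of 1.5, the repeated library kept, and leaving out each library. Annotation lengths and 3′ UTRs came from GENCODE, GRCm38. Python 3.11.15 and matplotlib 3.10.9 made tables and plots.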

Additional observations from a re-analysis of the deposited data

Results flagged for a closer look

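The difference between the male and the female effect passed the interaction test in limma for 2 members. For Klf2 the male effect exceeded the female effect by 1.217 on the log2 scale (adjusted p = 0.042), with the AS libraries higher than the WT libraries in both sexes. For Klf13 it exceeded it by 0.976 (adjusted p = 0.021), with all 3 male AS libraries above and all 3 female AS het libraries below the WT libraries of their sex. The table headers of female WT and female AS het libraries carry different code prefixes of unstated meaning, so what the code marks and genotype cannot be told apart on the female side of either difference.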

How the results depend on the processing

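In males 3 members passed the test, as did 35.5% of all genes. The count was 5 with both sexes in 1 fit (44.1% of all genes), 5 with equal column totals (42.3%) and 5 with quantile normalization (36.0%). At the unadjusted p under 0.05 with a fold over 1.5 it was also 5 (30.6%). When a library was left out it ran from 1 (without male WT replicate 1, 19.3%) to 6 (without male WT replicate 2, 37.4%). In females it was 0 (1.40% of all genes), and 1 with equal column totals (4.27%) and 1 at the unadjusted threshold with that fold (8.62%). With the repeated library counted as deposited it was 2 (15.8%). It was 0 when any AS het library was left out (0.0260% to 0.287%). For the difference between the sexes it was 2 (23.2% of all genes). It was 1 without a filter (2016 of 24085 genes passed) and 1 with quantile normalization (3637 of 15473). It was 0 to 2 when a male or an AS het library was left out (361 to 4835 genes passed). Klf9 in males also lost its call without a filter (adjusted p = 0.070) and with quantile normalization (adjusted p = 0.063).

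Some signs turned. With equal column totals Klf10 in males went from -0.36 to 0.044 and Klf6 in females became 0.13 (0.16 with quantile normalization), and the difference between the sexes became 0.085 for Klf4 and 0.13 for Klf9. With the repeated library kept, Klf10 in females was -0.015. Leaving out a library gave, in females, -0.081 to 0.137 for Klf10, -0.349 to 0.744 for Klf15, -0.365 to 0.048 for Klf3 and -0.055 to 0.003 for Klf6, and for the difference -0.326 to 0.026 for Klf9 and -0.435 to 0.076 for Klf4. Causes were not tested.

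Same-numbered male samples had correlations of 0.048, 0.523 and 0.057 of their deviations across genes, and female ones 0.257 and -0.047. With 2 female WT libraries the deviations of those libraries mirror each other, so the female values are not independent. Whether the numbers pair samples is not settled by these values, and the main test treated the samples as unpaired. A replicate block gave 6 members past the test in males (Klf2, Klf4, Klf13 higher and Klf5, Klf9, Klf15 lower), where 40.4% of all genes passed. It gave 1 in females (Klf4, 5.57% of all genes) and 2 for the difference (3438 of 15473 genes). Female AS het replicate 3 has no distinct WT library of its number, so the female contrast there rests on replicates 1 and 2. Klf4 had the same log2 fold change, 1.07, without female AS het replicate 3 and did not pass there (adjusted p = 0.10 from limma).

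Over all genes, 5641 passed in males (2638 higher, 3003 lower) and 5292 higher and 1420 lower with equal column totals, which moved the median of all genes to 0.36 in males and 0.12 in females. Leaving out a library gave 2488 to 5878. In females 222 passed (167 higher, 55 lower) and 8 without a filter, 147 with the filter at 2 CPM, 134 with quantile normalization, 626 higher and 48 lower with equal column totals, 881 with the replicate block, 1362 at the unadjusted threshold with that fold, 2517 with the repeated library kept and 4 to 1805 with a library left out. For the difference 3593 passed, 2016 without a filter, 5714 with the repeated library kept and 0 to 4835 with a library left out, 0 being without female WT replicate 1.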
